A study of Mus musculus with 3 samples.

Results

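The 40 genes described here are transcripts of the growing oocyte and maternal-effect genes. They were taken by gene symbol from the counts of mouse blastocysts, where each was found once among 24063 genes. The counts come from 3 low-input RNA-Seq libraries of untreated embryos, 1 from C57BL/6 (B6), the inbred control strain, and 2 from NOD, the non-obese diabetic strain that develops autoimmune diabetes. The labels describe whole blastocysts, whereas the paper describes single inner cell masses (ICMs) isolated by immunosurgery. Neither gives the age or sex of the embryos or whether the NOD libraries share a litter. With 1 B6 library, replicate spread can be seen in NOD alone, it may be technical, and strain cannot be told apart from this one B6 embryo. Counts on genes summed to 12505685 in B6, 33891715 in NOD 1 and 36171013 in NOD 2.

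The mouse oocyte loads its cytoplasm with messenger RNA before fertilization and then stops transcription. Most of this store is destroyed around the 2-cell stage, when the embryonic genome takes over, so that RNA of a gene used by the oocyte alone is usually at its lowest in the blastocyst. Some maternal-effect genes are transcribed again by the embryo and by pluripotent cells. In bulk RNA, fewer cells that hold a transcript and less of it per cell cannot be told apart.

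Promoter sequences are shown first for 4 members. Those of Ddx4 and Dazl, germline RNA-binding genes that were up-regulated in NOD, and of Khdc3, the member with the highest level, have each CG dinucleotide in capitals. They run 5′ to 3′ from 250 bases before to 50 bases after the RefSeq start (GRCm38.p6), at chr13:112652261-112652560 (minus strand) for Ddx4, chr17:50293571-50293870 (minus strand) for Dazl and chr9:73102148-73102447 (plus strand) for Khdc3.
Ddx4: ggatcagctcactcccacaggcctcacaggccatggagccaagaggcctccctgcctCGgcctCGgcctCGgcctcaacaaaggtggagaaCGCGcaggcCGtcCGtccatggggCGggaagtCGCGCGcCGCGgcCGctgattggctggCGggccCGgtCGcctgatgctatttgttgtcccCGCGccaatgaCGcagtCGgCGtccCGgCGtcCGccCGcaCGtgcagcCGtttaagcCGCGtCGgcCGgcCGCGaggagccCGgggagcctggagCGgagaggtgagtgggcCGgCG
Dazl: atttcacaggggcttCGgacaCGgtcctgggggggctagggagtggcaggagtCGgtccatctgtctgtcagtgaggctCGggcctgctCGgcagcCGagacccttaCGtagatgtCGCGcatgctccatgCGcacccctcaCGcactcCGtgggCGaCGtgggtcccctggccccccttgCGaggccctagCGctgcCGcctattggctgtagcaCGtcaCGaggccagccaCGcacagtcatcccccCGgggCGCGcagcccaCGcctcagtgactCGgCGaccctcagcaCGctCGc
Khdc3: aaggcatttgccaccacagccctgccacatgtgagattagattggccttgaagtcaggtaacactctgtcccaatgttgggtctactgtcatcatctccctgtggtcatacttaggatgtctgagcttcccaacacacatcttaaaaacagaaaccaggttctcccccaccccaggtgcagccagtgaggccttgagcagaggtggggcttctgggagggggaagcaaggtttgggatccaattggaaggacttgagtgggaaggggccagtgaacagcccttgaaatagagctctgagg

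The Ddx4 window held 38 CG dinucleotides, more than 95.2% of 27025 RefSeq promoters of the same length, and the Dazl window held 28, more than 86.0%. The Khdc3 window held none, against a median of 7 over all promoters. Gpr3, which had 3 counts in NOD 2 and none elsewhere, also held 38, and Kit, which was not called, held 20. Promoters rich in CG are a known feature of germline genes that somatic cells keep methylated, and no methylation was measured in these embryos. The 31 members found in the RefSeq promoter table had a median of 4 CG dinucleotides, and 25.8% of them had 15 or more, against 35.2% of all promoters.

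The promoter of Zp3 is shown because the zona pellucida genes are the textbook targets of Figla, a basic helix-loop-helix factor that binds E-boxes. Capitals mark each CANNTG, the E-box, which reads the same on both strands and includes CACGTG. The window lies at chr5:135979855-135980154 (plus strand, GRCm38.p6).
Zp3: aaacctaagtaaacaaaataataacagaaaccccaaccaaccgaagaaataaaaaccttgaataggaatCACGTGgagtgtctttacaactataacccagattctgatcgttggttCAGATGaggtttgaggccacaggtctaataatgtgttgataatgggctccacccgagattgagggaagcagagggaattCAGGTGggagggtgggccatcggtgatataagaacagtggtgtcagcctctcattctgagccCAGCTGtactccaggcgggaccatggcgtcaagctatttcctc

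It held 4 E-boxes, of which 1 was CACGTG. An E-box was present in 87.1% of the 31 member promoters and in 72.1% of all promoters. Of 2 homeobox words searched on both strands, TAATTG was present in 22.6% of member promoters and 8.15% of all, and the other, TAATTA, in 6.45% and 5.31%. A match describes the letters only and is not evidence of binding.

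The members summed to 0.209% of the B6 counts, 0.244% of those in NOD 1 and 0.255% in NOD 2, and nearly all of this came from a single gene. Khdc3 accounted for 88.1% of this sum in B6, 84.7% in NOD 1 and 84.2% in NOD 2. On the scale of CPM (counts per 1000000 counted reads, with library sizes corrected by edgeR's TMM factors), the 40 genes summed to 1920 in B6, 2497 in NOD 1 and 2715 in NOD 2. Without Khdc3 the sums were 229.3, 382.9 and 427.6 CPM. Leaving out also Cnot7 and Kit, which many tissues express, the remaining 37 genes summed to 156.7 CPM in B6 against 157.9 in NOD 1 and 219.03 in NOD 2. On this last sum B6 and NOD 1 lay closer to each other than the NOD libraries did.

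Many members were found at low levels. Of the 40, 10 had under 10 counts in every library, 20 stayed under 1 CPM in each library and 3 (Nlrp2, Nobox and Oog4) had 0 counts throughout, whereas only Khdc3, Cnot7 and Ooep exceeded 50 CPM in any library. At least 1 count was found for 24 members in B6, 31 in NOD 1 and 28 in NOD 2. The B6 library was the shallowest, and a gene without counts there may still be present at up to 0.220 CPM (3 counts), against 0.0908 in NOD 1 and 0.0882 in NOD 2. As PCR copies were not marked by molecular identifiers, these limits and the intervals below cover counting error only. With NOD counts scaled down to the B6 total, at least 10 counts were reached by 16 members in B6, 15 in NOD 1 and 16 in NOD 2, against 26 and 21 in NOD before scaling. At least 1 count was then reached by 24, 30 and 26 members and more than 3 counts by 20, 27 and 22, with NOD 1 the highest for the members. Over all genes NOD 2 was the highest, with 57.3% in B6, 58.1% in NOD 1 and 59.9% in NOD 2 at 1 count or more after scaling, and 48.7%, 50.5% and 50.6% at 10 or more.

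**Figure D1:**
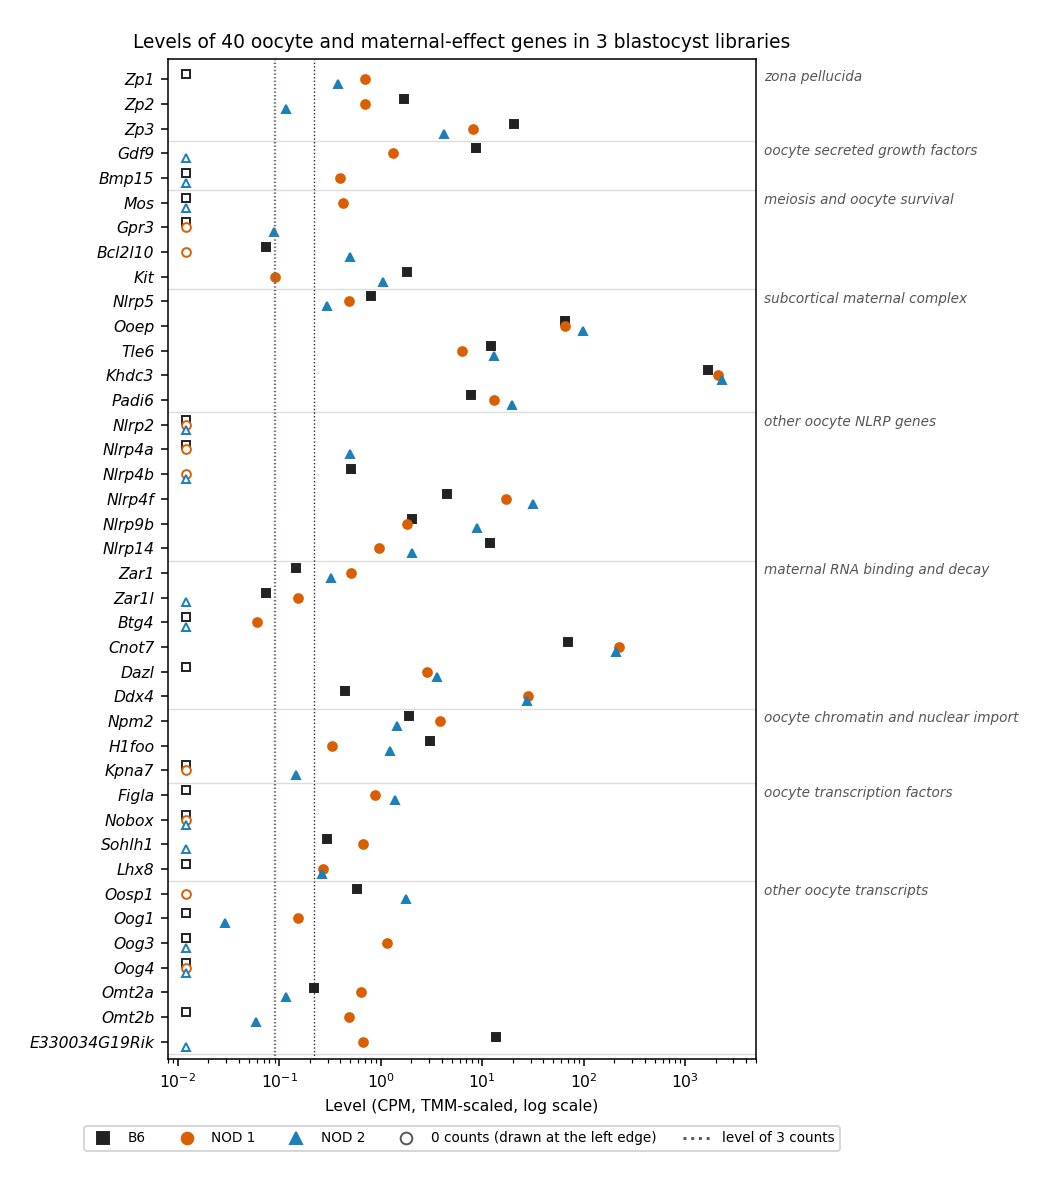
Level of each member in B6 (squares), NOD 1 (circles) and NOD 2 (triangles), in CPM on a log axis and grouped by role. Open symbols at the left edge are 0 counts, and dotted lines mark the level of 3 counts in each library (0.220 CPM in B6). Khdc3 stands alone at the right, with 1691 CPM in B6, and the gap between B6 and both NOD libraries is widest for Ddx4 and Dazl among the members with 50 or more counts in each NOD library.

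The strains were compared over 14456 genes with the quasi-likelihood test of edgeR, with Benjamini-Hochberg adjustment. Calls required an adjusted p below 0.05 together with a 2-fold change or more. Of the 40 members, 28 passed the filter on low counts and 12 did not. Of these 28, 3 were up-regulated in NOD (Ddx4, Dazl and Cnot7), against 10.3% of all genes tested, 17.7% of which were called in either direction. None was down-regulated, against 7.39% of all genes. Over all genes this test called 1483 higher and 1069 lower, and with total counts as the only scaling it called 1037 and 1132. Nlrp14 and E330034G19Rik were called lower by DESeq2 and by edgeR with a filter of at least 1 CPM on the mean, and E330034G19Rik also with the dispersion estimated within the fit. Over all genes DESeq2 called 12.9% lower, the filtered edgeR test 1786 of 12280, and the test with the dispersion within the fit 9.50%. An unadjusted p under 0.05 was reached by 8 members, against 39.9% of all genes, and 25 members were not called. A member that passed the filter only through NOD had to be higher there, so these counts describe the members and do not set them apart from other genes. Both NOD libraries lay above B6 for 10 of the 28 and below B6 for 8, against 45.3% and 39.4% of all genes tested.

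The median log2 fold change of the members tested was 0.67, against 0.26 over all genes tested. The members' median was 0.42 once the 6 members without counts in B6 took their bound. No bound was put in for all genes, so that 0.42 and 0.26 are not like values. Without NOD 2 the members' median was 0.16 and that of all genes 0.11. Only 1 residual degree of freedom was left to estimate the spread, which edgeR moderates over all genes. The single B6 embryo is taken to scatter as the NOD embryos do.

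**Figure D2:**
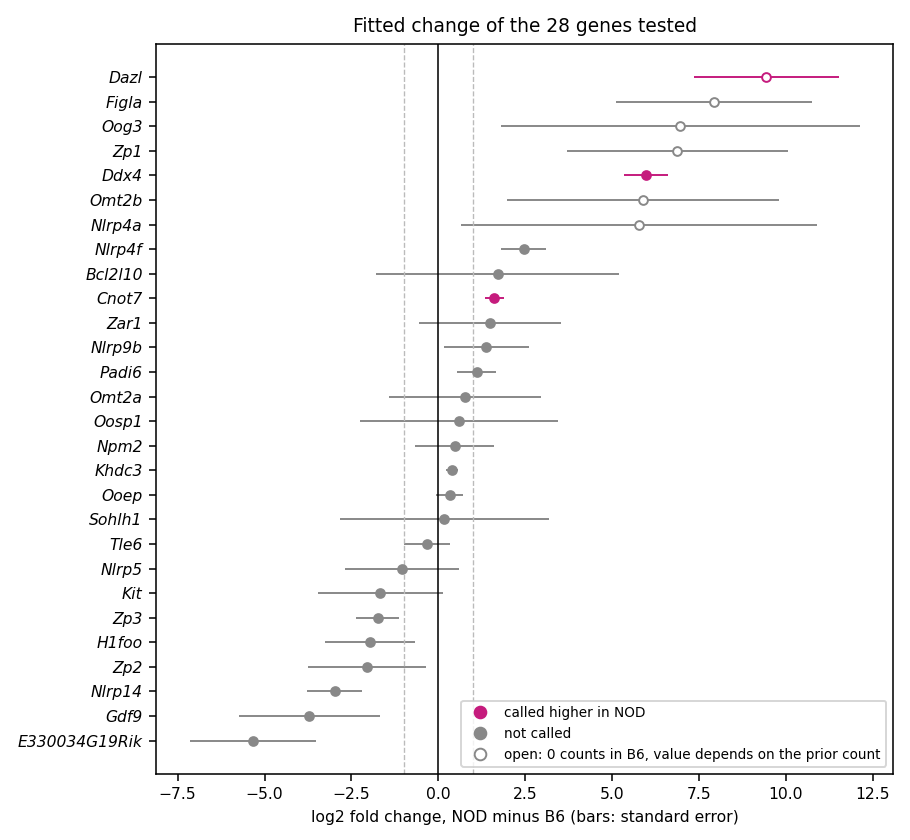
Fitted log2 fold change (NOD minus B6) of the 28 members tested, with bars of 1 standard error. The genes called, Dazl, Ddx4 and Cnot7, are in colour, and open circles are genes at 0 counts in B6, whose fitted value depends on the prior count and is no bound. Dashed lines mark a 2-fold change.

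Of the genes called, the smallest adjusted p belonged to Ddx4, which encodes the Vasa RNA helicase, a hallmark of the germ line in animals. Ddx4 (NM_001145885, chromosome 13, 112598333 to 112652310 of mm10) had 6 counts in B6 against 939 in NOD 1 and 942 in NOD 2. NOD averaged 28.04 ± 0.514 CPM (SD, n = 2) and B6 stood at 0.440 CPM. NOD exceeded B6 63.7 times, and the exact Clopper-Pearson 95% interval for counting error ran from 29.2 to 174. In edgeR the log2 fold change was 5.98, with a standard error of 0.64 and an adjusted p = 0.0203. The NOD libraries differed from each other by 1.03-fold, far less than either differed from B6. None of its 50-base words occurs in a transcript of another gene in the GENCODE M21 annotation, and no other span of the counted genes overlaps it. Ddx4 was no longer called when genes with low counts were kept (edgeR, adjusted p = 0.0649) or with limma-voom (0.190). Neither setting called any gene, with 33.2% and 27.1% of genes at an unadjusted p under 0.05.

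Dazl, which encodes an RNA-binding protein that promotes translation in germ cells, was not found in B6. Dazl (NM_010021, chromosome 17, 50279393 to 50293620) had 0 counts in B6 against 94 in NOD 1 and 121 in NOD 2. NOD averaged 3.20 ± 0.503 CPM (SD, n = 2), at least 14.5-fold higher than B6 at its floor of 3 counts. The adjusted p was 0.0449 in edgeR, close to the limit, and ranged from 0.0151 to 0.402 over 8 other settings, with 3 of which it was called. Among the settings that did not call Dazl were total counts only, upper-quartile factors and the dispersion estimated within the fit. For each of these germline genes the NOD libraries were close to each other, and B6 was at or near 0.

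Cnot7, a deadenylase subunit of the CCR4-NOT complex that shortens poly(A) tails in most cell types, was up-regulated at a higher level. Cnot7 (NM_011135, chromosome 8, 40492538 to 40511754) had 964 counts in B6 against 7435 in NOD 1 and 7063 in NOD 2. From 70.7 CPM in B6 it rose to 216.2 ± 12.3 CPM (SD, n = 2), by 1.61 on the log2 scale with a standard error of 0.26 (edgeR, adjusted p = 0.0286). Like Ddx4 it was not called with low counts kept (0.0667) or with limma-voom (0.0777). Btg4, the oocyte adaptor that brings this enzyme to maternal messages, had 0 counts in B6 against 2 in NOD 1 and 0 in NOD 2, so that its level was at or under the limit of detection in every library. Zar1, an RNA-binding protein of the oocyte, had 2, 17 and 11 counts in B6, NOD 1 and NOD 2, a NOD to B6 ratio of 2.84 whose counting interval spans 0.717 to 24.6. Zar1l, a relative of Zar1, had 1, 5 and 0 counts. Of the 50-base words of Zar1, 22.8% also occur in Gm15847.

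The subcortical maternal complex lies under the membrane of the oocyte and early embryo, and several of its subunits are required for development beyond the first cleavages. Its subunits differed widely in level. As CPM per kilobase of listed length (FPKM), which allows genes to be compared, Khdc3 (Filia) stood at 1006 in B6, 1258 in NOD 1 and 1361 in NOD 2, rank 69, 40 and 38 of all genes. Ooep followed with 54.6, 54.4 and 82.4 FPKM, then Tle6 with 6.13, 3.19 and 6.57 and Padi6 with 3.33, 5.71 and 8.55. Nlrp5 (Mater) was lowest, with 0.234, 0.140 and 0.0853 FPKM from 11, 16 and 10 counts. Among the members, 23 in B6, 14 in NOD 1 and 17 in NOD 2 were lower than Nlrp5 on this scale.

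None of the 5 subunits was called between the strains. Khdc3 (NM_025890, chromosome 9, 73102398 to 73104443) had 23041 counts in B6 against 69881 in NOD 1 and 77846 in NOD 2. Both NOD libraries were above B6, at 2201 ± 122.6 CPM (SD, n = 2) against 1691, a difference of 0.38 on the log2 scale with a standard error of 0.17 (edgeR, adjusted p = 0.172). Of its 50-base words, 42.8% also belong to Gm20509 in GENCODE M21. Ooep (chromosome 9, 78376903 to 78378588) had 65.6 CPM in B6 against 65.3 in NOD 1 and 99.1 in NOD 2, so that B6 and NOD 1 were alike and NOD 2 was higher. Tle6 had 12.3, 6.38 and 13.1 CPM, with B6 between the NOD libraries. Padi6, needed for the cytoplasmic lattices of the oocyte, averaged 16.5 ± 4.66 CPM in NOD (SD, n = 2) and stood at 7.71 CPM in B6 (edgeR, adjusted p = 0.210).

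The other oocyte NLRP genes, relatives of Nlrp5 with leucine-rich repeats, differed in the order of the strains. Nlrp4f (chromosome 13, 65177111 to 65205716) had 61 counts in B6 against 563 in NOD 1 and 1090 in NOD 2. NOD averaged 24.5 ± 10.6 CPM (SD, n = 2) and B6 4.48 CPM, 2.45 apart on the log2 scale with a standard error of 0.65 (edgeR, adjusted p = 0.0624). Nlrp14 (chromosome 7, 107166990 to 107198103) had the opposite order, with 162 counts in B6 against 32 in NOD 1 and 69 in NOD 2. B6 stood at 11.9 CPM, NOD 1 at 0.968 and NOD 2 at 2.03, and the fitted log2 value was -2.98 with a standard error of 0.80 (edgeR, adjusted p = 0.0633). In both genes each NOD library lay on the same side of B6, but neither gene passed the threshold. DESeq2 called both in these opposite directions, as did edgeR with a filter of at least 1 CPM on the mean. Over all genes DESeq2 called 16.2% higher and 12.9% lower, and the filtered edgeR test called 2267 and 1786 of 12280 genes.

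Nlrp9b had 2.05 CPM in B6 against 1.82 in NOD 1 and 8.90 in NOD 2, so that NOD 2 alone was high. Nlrp4a had 17 counts in NOD 2 and 0 in the other libraries, whereas Nlrp4b had 7 counts in B6 and 0 in both NOD libraries. Of the 40 members, 7 lie on chromosome 7 (5 of these are NLRP genes besides Nlrp5), and 6 lie on chromosome 9. Shared 50-base words reached 7.13% for Nlrp4f, 6.22% for Nlrp9b and 8.84% for Nlrp5, with Nlrp4g, Nlrp9a and the pseudogene Nlrp5-ps as the main partners, and were absent for Nlrp14.

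The zona pellucida genes encode the egg coat, which the oocyte alone makes in the mouse. Zp3 had 280 counts in B6 against 266 in NOD 1 and 143 in NOD 2. NOD averaged 6.12 ± 2.72 CPM (SD, n = 2) and B6 20.5 CPM, with a fitted log2 value of -1.75 and a standard error of 0.61 (edgeR, adjusted p = 0.106). Zp2 had 23, 23 and 4 counts and Zp1 had 0, 23 and 13. Zp3 and Zp2 were therefore highest in B6 while Zp1 was not found there, and none of these differences was called. Per length, Zp3 exceeded Zp1 and Zp2 in every library, at 15.7 FPKM in B6, 6.16 in NOD 1 and 3.21 in NOD 2.

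Gdf9 and Bmp15, the paired growth factors by which the oocyte drives its follicle cells, were both found in NOD 1, neither was found in NOD 2, and Gdf9 alone was found in B6. Gdf9 had 119 counts in B6 against 44 in NOD 1 and 0 in NOD 2, or 8.73, 1.33 and 0 CPM (edgeR, fitted log2 value -3.71, adjusted p = 0.233). Without NOD 2 the fitted value was -2.71, and without NOD 1, where only the count of 0 is left, it was -10.70. Bmp15 had 13 counts in NOD 1 and 0 in the other libraries. Mos, the kinase that holds the egg in meiotic arrest, also had its 14 counts in NOD 1 alone. Gpr3, the receptor that keeps cyclic AMP high in the oocyte, had 3 counts in NOD 2 alone. Bcl2l10, a relative of Bcl2, had 1, 0 and 17 counts in B6, NOD 1 and NOD 2. Kit, the receptor for stem cell factor, had 25, 3 and 36 counts, which put NOD 2 at 11.7 times NOD 1 on the CPM scale.

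Oocyte transcription factors were at low levels in every library. Figla, the E-box factor named above, had 0 counts in B6 against 29 in NOD 1 and 47 in NOD 2. NOD averaged 1.13 ± 0.356 CPM (SD, n = 2), at least 5.13-fold higher than B6 at its floor (edgeR, adjusted p = 0.105). Lhx8, a LIM homeobox factor of the early follicle, had 0, 9 and 9 counts. Sohlh1, which acts early in oocyte differentiation, had 4, 22 and 0 counts, a NOD to B6 ratio of 1.12 whose counting interval spans 0.379 to 4.46, and Nobox had none. Together these 4 genes summed to 0.294 CPM in B6 against 1.82 in NOD 1 and 1.65 in NOD 2.

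In chromatin and nuclear import, Npm2, the nucleoplasmin of the egg, had 26, 127 and 49 counts in B6, NOD 1 and NOD 2, with B6 between the NOD libraries at 1.91 CPM. H1foo, the linker histone of the oocyte, had 42, 11 and 42 counts, or 3.08, 0.333 and 1.23 CPM. Kpna7, a maternal importin alpha, had 5 counts in NOD 2 alone. None of these was called.

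Among the remaining oocyte transcripts, E330034G19Rik (NM_001033214, chromosome 14, 24293364 to 24309959) was the member with the largest fitted decrease. It had 186 counts in B6 against 22 in NOD 1 and 0 in NOD 2, or 13.6, 0.666 and 0 CPM. Both NOD libraries were below B6, with a fitted log2 value of -5.34 and a standard error of 1.81, and the adjusted p of 0.0994 in edgeR missed the limit. The fitted value was -4.35 without NOD 2 and -11.35 without NOD 1, the latter resting on a count of 0 and so on the prior count. It was called lower in 3 of 8 other settings, among them the same test with the dispersion estimated within the fit (adjusted p = 0.0193), an alternative chosen after the data were seen. That setting called 8.52% of genes higher and 9.50% lower.

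Oosp1, an oocyte-secreted protein, had 8, 0 and 60 counts. Oog1 and Oog3 belong to the oogenesins, a repeated gene family. Oog3 had 38 counts in NOD 1 and 0 elsewhere, and Oog1 had 0, 5 and 1. Of the 50-base words of Oog1, 96.7% occur in another gene, mainly Gm2042, so that its count cannot be assigned to it with certainty. For Oog3 the share was 19.7%, mainly with Gm4350. Omt2a had 3, 21 and 4 counts and Omt2b had 0, 16 and 2. These neighbours on chromosome 9 were both highest in NOD 1, and 51.5% of the words of Omt2b also occur in Omt2a.

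**Figure D3:**
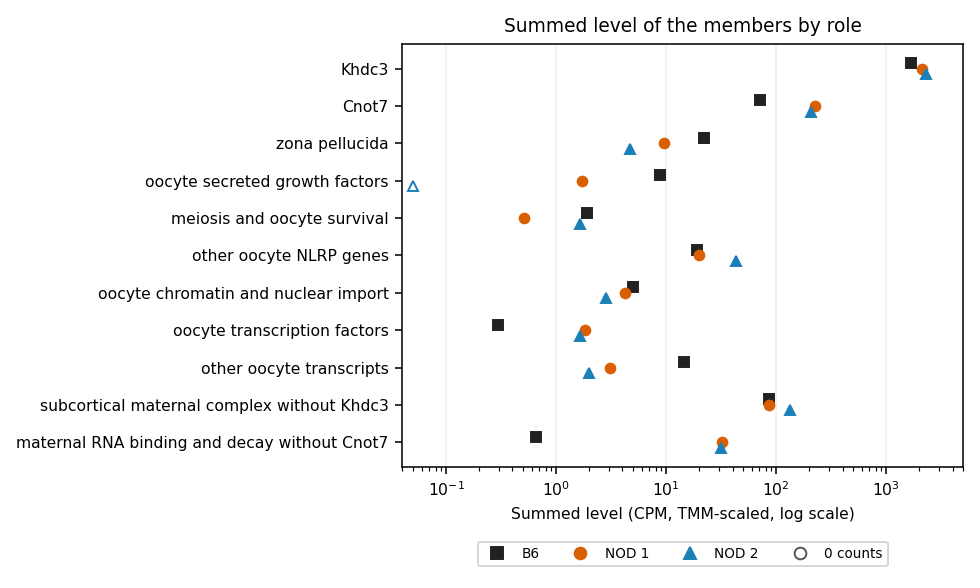
Summed level in CPM (log axis) of the members of each role in B6 (squares), NOD 1 (circles) and NOD 2 (triangles), with Khdc3 and Cnot7 drawn on their own. RNA-binding genes without Cnot7 summed to 0.660 CPM in B6 against 32.0 in NOD 1 and 31.6 in NOD 2, nearly all of it in NOD from Ddx4 and Dazl, and the zona pellucida genes to 22.2, 9.44 and 4.70.

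The NOD libraries differed from each other over many of these genes. Of 21 members with counts in both NOD libraries and at least 10 in one, 9 differed by more than 2-fold between them, with a median of 1.88-fold. Over the 13236 genes that met the same limits, 21.5% differed by more than 2-fold, and the median was 1.35-fold. A further 9 members had 0 counts in one NOD library and at least 10 in the other, 7 of them among the 28 tested, against 5.71% of all genes tested. Low counts vary more than high ones, and no test of the members against other genes at their level was made. By contrast, Khdc3, Cnot7, Ddx4 and Dazl differed by 1.08-, 1.08-, 1.03- and 1.25-fold.

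**Figure D4:**
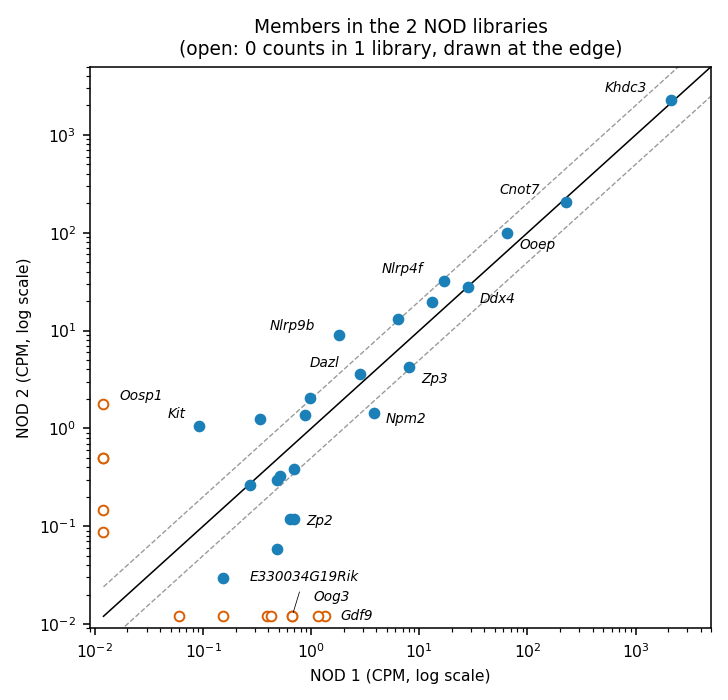
Level of each member in NOD 1 and NOD 2, in CPM on log axes. The solid line is equality and dashed lines are 2-fold, and open circles on the edges are members at 0 counts in 1 library. Above 20 CPM the members lie within 2-fold of equality, whereas Gdf9, Oog3 and E330034G19Rik have no counts in NOD 2, and Oosp1 has none in NOD 1.

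Markers of other cells were measured beside these genes. Of 16 genes of cumulus and granulosa cells, the somatic cells around the oocyte, 9 had 0 counts in every library, among them Cyp19a1, Fshr, Inha, Has2, Ptgs2 and Lhcgr. The 16 summed to 11.7 CPM in B6 against 17.8 in NOD 1 and 22.3 in NOD 2, mostly from Amhr2 and Star, sums above those of several member roles. Amhr2 stood at 5.36, 8.44 and 19.7 CPM, and the part of such cells in the results was not tested. The 10 genes of sperm summed to between 1.91 and 5.14 CPM. Markers of the blastocyst itself reached higher sums, but not all of them were found. Of the primitive endoderm, Foxa2 had 0 counts in every library and Sox17 had 16 in NOD 2 alone. Elf5 of the trophectoderm had 0, 7 and 10 counts in B6, NOD 1 and NOD 2. The 10 ICM genes summed to 1130 CPM in B6 against 972.8 in NOD 1 and 1198 in NOD 2, but genes within this list were called in opposite directions. Sox2, a core pluripotency factor, fell from 49.8 CPM to 7.68 ± 2.73 (SD, n = 2; edgeR, adjusted p = 0.0327). Tdgf1, a co-receptor for Nodal, rose from 1.47 to 39.5 ± 12.9 CPM (adjusted p = 0.0231), and Zfp42 (Rex1) from 61.6 to 187.6 ± 46.7 CPM (adjusted p = 0.0441). The 10 genes of the primitive endoderm summed to 862.7, 811.1 and 1015 CPM, mostly from Dab2 and Gata6. Gata6 was lower in NOD (385.1 to 110.7 ± 27.1 CPM, edgeR, adjusted p = 0.0285) and Pdgfra higher (5.50 to 24.1 ± 0.707 CPM, adjusted p = 0.0488). The 10 trophectoderm genes summed to 3088, 1792 and 1659 CPM, mostly from Krt18 and Krt8. Krt18, the highest of them, had 1464 CPM in B6 against 811.8 in NOD 1 and 852.3 in NOD 2 and did not reach the 2-fold limit. Gata2 (4.11, 12.7 and 23.8 CPM) and Krt7 (47.2, 55.2 and 53.9 CPM) had the opposite order, and none of the 9 tested was called. The part of these differences in cell type markers in the results above was not tested.

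Calls among other genes of the maternal program went in both directions, as they did over all genes. Of 22 tested genes of the maternal mRNA decay machinery, 2 were up-regulated and 2 down-regulated, against 10.3% and 7.39% of all genes, with a median log2 fold change of 0.10, which turned to -0.082 with total counts only and to -0.014 without NOD 2. Cnot8, the second deadenylase of its kind beside Cnot7, rose from 88.9 CPM in B6 to 213.8 ± 7.18 in NOD (SD, n = 2), with an adjusted p = 0.0391 from edgeR. Rqcd1, another subunit of the same complex, rose from 92.1 to 245.2 ± 34.8 CPM (adjusted p = 0.0380). The genes that fell were Parn, a separate deadenylase, from 100.6 to 37.1 ± 1.61 CPM (adjusted p = 0.0453), and Ddx6, a helicase of messenger storage, from 82.0 to 24.8 ± 5.53 CPM (adjusted p = 0.0446). Of 9 tested genes of mRNA storage and translation in the oocyte, Lsm14b fell by 2.41 on the log2 scale (adjusted p = 0.0385), and the median was -1.16 (-0.50 with low counts kept).

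Of 27 other maternal-effect genes tested, 2 were up-regulated and 5 down-regulated, against 10.3% and 7.39% of all genes, with a median of -0.45 (-0.12 without NOD 2). Dppa3 (Stella), which protects the maternal genome from demethylation, had the highest level of this list. It had 23719 counts in B6 against 171485 in NOD 1 and 208439 in NOD 2, so that 1741 CPM in B6 became 5656 ± 662.6 CPM in NOD (SD, n = 2), higher by 1.70 on the log2 scale (edgeR, adjusted p = 0.0205). Hsf1, a heat shock factor, was the other gene that rose, from 21.8 to 104.9 ± 2.02 CPM (adjusted p = 0.0257). Smarca4, Brwd1, Hsf2, Dnmt1 and Cdh1 fell, and of these Smarca4 had the largest decrease and fell by 2.30 on the log2 scale (adjusted p = 0.0208). Of 24 genes of the 2-cell stage, 10 had 0 counts in all libraries, the Zscan4 genes included. The list summed to 693.2 CPM in B6 against 1334 in NOD 1 and 1516 in NOD 2, of which Pramel6 made up 486.4, 727.1 and 724.2 CPM (edgeR, adjusted p = 0.105). Nearly all of the rest came from Eif1a, at 198.0, 503.5 and 582.1 CPM, and from Obox6. Of 6 tested, Eif1a and Obox6 were up-regulated, against 10.3% of all genes. Obox6, an oocyte homeobox gene, rose from 7.85 CPM to 154.1 ± 74.8 (adjusted p = 0.0249).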

How the data were processed

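Expression was measured in 3 SMART-Seq V4 libraries of mouse blastocysts. The authors aligned single-end reads to mm10 with STAR (version 2.2.0c in the submitters' processing notes, another version in the paper) and counted them per gene with HOMER, over RefSeq exons of 1 transcript each and without regard to strand. The deposited values are raw counts, not normalized, and the treatment of reads that align to several places is not given in the sources used here. The counting command names 5 libraries, of which 3 were analysed here. Members and gene lists were chosen with earlier results of these data known.

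Analyses used R 4.3.3 with edgeR 4.0.16, limma 3.58.1 and DESeq2 1.42.0, and Python 3.11.15 with scipy 1.17.1. Genes were kept by filterByExpr (minimum count 10), scaled by TMM and tested with edgeR's quasi-likelihood method (legacy set to false, trended dispersion). Standard errors were derived from the fitted value and its F statistic. The test was tried first on simulated counts, drawn with the same trended dispersion in every library. Such a trial cannot show how far B6 embryos differ from each other. Alternatives were other scalings, filters and tests. All 40 members are accounted for, and a gene of another list was named only where it was called, was the highest of its list or bore on a result. RefSeq promoters were found for 31 members, and no protein sequences were used here. Shared words of 50 bases were counted in GENCODE M21 transcripts (GRCm38). FPKM is CPM per kilobase of the listed length.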

Additional observations from a re-analysis of the deposited data

How the results depend on the processing

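The number of genes called depended most on the test and the filter. Against 1483 up-regulated and 1069 down-regulated genes, DESeq2 called 2346 and 1864, a filter of at least 1 CPM on the mean called 2267 and 1786, and upper-quartile factors left 701 down-regulated. None was called when genes with low counts were kept (0 and 0) or with limma-voom (0 and 0), nor was any member or any gene of the other lists. At an unadjusted p under 0.05 these settings held 5568 of 16765 and 3924 of 14456 genes, and 6 and 4 members. The members called lower were 2 with DESeq2, 2 with the 1 CPM filter and 1 with the dispersion estimated within the fit, an alternative chosen after the data were seen. In the other lists, with 9 genes up- and 10 down-regulated, upper-quartile factors gave 5 and 6, and the genes down-regulated were 19 with the 1 CPM filter, 20 with DESeq2 and 16 with the dispersion within the fit.

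The median of the fitted log2 values over all genes was 0.072 with total counts only, 0.37 with low counts kept, 0.093 with the 1 CPM filter, 0.17 with limma-voom, and from 0.11 without NOD 2 to 0.17 without NOD 1. The members' median was 1.41 with low counts kept, 0.36 with the 1 CPM filter, 0.29 with limma-voom, and from 0.16 without NOD 2 to 0.52 without NOD 1. The median of the decay machinery turned to -0.082 with total counts only, and ran from -0.014 without NOD 2 to 0.13 without NOD 1. That of mRNA storage was -0.50 with low counts kept, and that of other maternal-effect genes ran from -0.39 without NOD 1 to -0.12 without NOD 2. With limma-voom the fitted direction of Bcl2l10 (-0.29), Sohlh1 (-1.76) and Oosp1 (-1.88) turned. It also turned without NOD 1 for Sohlh1 (-5.83), Omt2a (-0.88), Npm2 (-0.40) and Tle6 (0.10), and without NOD 2 for Oosp1 (-6.79), Bcl2l10 (-3.88), Nlrp9b (-0.18) and Ooep (-0.0057). None of these genes was called. The cause of these shifts was not tested.

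The summed level of the members, 1.36 times that of B6 in NOD, was 1.19 times with total counts only, 1.77 without Khdc3 and 1.20 without Khdc3, Cnot7 and Kit. At B6 depth, 15 members had at least 10 counts in NOD 1. No paired analysis was possible because there is only 1 B6 library, so that the strains share fewer than 2 replicate numbers. With 1 library left out, 1 was compared with 1, which gives a value and no test. The depth of B6 limits every gene under 0.220 CPM there.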
